A study of Mus musculus with 17 samples.

Results

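The genes described are the 6 mouse genes for receptors of the antibody Fc region: Fcgr1, Fcgr2b, Fcgr3, Fcgr4, Fcer1g and Fcgrt. They were chosen by name, and all 6 have a row in the deposited matrix of 26131 genes and 284074 nuclei. The study counted nuclear RNA in single nuclei of the posterior brain of 17 female mice aged 2.3 months, all of the genotype hTfR KI HOM, in which both alleles of the transferrin receptor (TfR) carry a human knock-in, so that the controls share it too. The mice were dosed intravenously 4 times over 24 days with saline (n = 4), with free Malat1 ASO at 2 mg per kg (n = 4), with anti-TfR:Malat1 at 50 mg per kg (n = 6) or with OTV:Malat1 at 50 mg per kg (n = 3), and harvested 72 hours after the last dose. The labels name saline as the treatment of the control mice but repeat the 50 mg per kg of the conjugates in their dose field, and these mice were taken here as given no agent. Malat1 ASO is an antisense oligonucleotide against the nuclear RNA Malat1, given at an oligonucleotide-equivalent dose, anti-TfR:Malat1 is that type of oligonucleotide on a TfR antibody, and OTV:Malat1 carries it on a TfR-binding transport vehicle built on an Fc. Mutations in the Fc of either carrier, if any, are not given in the sources used here.

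An antibody carrier brings an Fc to every cell it meets, which is why these receptors are of interest in such a study. On macrophages the activating Fcγ receptors bind the Fc of IgG and signal through an attached γ-chain, which recruits the kinase Syk, while the inhibitory receptor FcγRIIB recruits the phosphatase SHIP-1 and dampens that signal. The neonatal receptor FcRn, a heavy chain paired with β2-microglobulin, binds IgG inside endosomes and returns it to the cell surface, and in the brain it is known from the endothelium. Microglia are the macrophages of brain tissue, and perivascular macrophages lie along its vessels.

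Fcgr1, Fcgr3 and Fcgr4 encode the ligand-binding chains of activating receptors and Fcer1g encodes their γ-chain. Fcgr2b encodes the inhibitory receptor and Fcgrt the heavy chain of FcRn. In GRCm38 (GENCODE M21), Fcgr1 lies at chr3:96282909-96293969 on the minus strand. On chromosome 1 lie Fcgr2b (chr1:170958617-170976547, minus strand), Fcgr4 (chr1:171018920-171029761, plus strand), Fcgr3 (chr1:171051174-171064935, minus strand) and Fcer1g (chr1:171229572-171234365, minus strand). Fcgrt lies at chr7:45092990-45103851 on the minus strand. All 6 are annotated as protein-coding. Gm38204 overlaps Fcgr2b and Gm45669 overlaps Fcgrt on the opposite strand, and the use of strand in counting is not given in the sources used here.

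Fcgr2b and Fcgr3 carry near-identical coding sequence, which matters because reads from a shared stretch cannot be assigned to either gene. Their longest shared run in the GENCODE M21 transcripts has 129 bases and spans exons 3 and 4 of both genes, in Fcgr2b-201 bases 402 to 530 of 3544 (chr1:170966674-170968081, minus strand) and in Fcgr3-201 bases 313 to 441 of 1347 (chr1:171054167-171057792, minus strand). It is printed once in lower case because every base is the same in both genes.

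Fcgr2b and Fcgr3 shared run: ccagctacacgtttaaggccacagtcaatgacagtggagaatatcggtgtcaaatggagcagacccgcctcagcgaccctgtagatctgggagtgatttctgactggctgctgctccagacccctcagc

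Of all 50-base windows in their transcripts, 166 were shared, 4.48% of the 3708 windows of Fcgr2b and 10.2% of the 1627 windows of Fcgr3. No other pair of the 6 genes shared a 50-base window, and their longest shared runs had at most 14 bases. The counting of reads that match both genes is not given in the sources used here, and the Fcgr2b and Fcgr3 values carry that uncertainty.

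The 3 genes for activating ligand-binding chains share a short promoter motif. The 120 bases before the start of Fcgr1 (chr3:96293970-96294089, minus strand), Fcgr3 (chr1:171059404-171059523, minus strand, an inner start of that gene) and Fcgr4 (chr1:171018806-171018925, plus strand) are printed from RefSeq (GRCm38.p6) on the gene's strand, with GAGGAA (here read as TTCCTC) and TTCNNNGAA in capitals.

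Fcgr1 promoter: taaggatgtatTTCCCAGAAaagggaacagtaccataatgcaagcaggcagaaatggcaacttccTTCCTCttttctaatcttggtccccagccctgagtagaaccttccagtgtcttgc
Fcgr3 promoter: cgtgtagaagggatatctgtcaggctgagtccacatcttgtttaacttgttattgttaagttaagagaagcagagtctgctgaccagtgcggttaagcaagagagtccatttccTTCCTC
Fcgr4 promoter: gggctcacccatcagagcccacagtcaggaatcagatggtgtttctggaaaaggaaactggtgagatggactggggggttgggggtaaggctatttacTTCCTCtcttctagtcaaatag

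GAGGAA, the core bound by macrophage factors of the ETS family, was searched on both strands and lay 55 to 50 bases before the start of Fcgr1, 6 to 1 before that of Fcgr3 and 22 to 17 before that of Fcgr4. It was present in 3821 of all 32851 promoter windows of this length (11.63%). TTCNNNGAA, the form bound by STAT factors, reads the same on both strands and lay 109 to 101 bases before the start of Fcgr1, and 1034 windows (3.148%) held it. Neither set of letters was in the windows of Fcgr2b, Fcer1g or Fcgrt. The motifs were chosen after the windows had been read, and a match describes letters, not a bound site.

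The deposited labels held 8444 microglia, 657 perivascular macrophages, 1226 vascular cells, 4972 astrocytes, 75282 oligodendrocytes, 193268 neurons and 225 glia. Libraries held 55393588 to 79866411 UMIs (unique molecular identifiers, each a counted RNA molecule) per animal, but an animal gave only 327643 to 848210 UMIs in microglia and 21209 to 79597 in perivascular macrophages. The labels held their markers: 8 microglia markers gave 6143 CPM (UMIs of a gene scaled to a fixed total of UMIs, 1e6) in microglia and 1683 in perivascular macrophages, and 8 perivascular macrophage markers gave 188 (Stab1 alone 176.7) and 8368. Markers of other cells were present too. Neuron markers summed to 1171 CPM in microglia and 1540 in perivascular macrophages (12780 in neurons). Oligodendrocyte markers summed to 1081 and 1358 CPM (10650 in oligodendrocytes). The part of such RNA in the receptor values was not tested. In microglia, Malat1 averaged 52560 CPM after saline, 52530 after Malat1 ASO, 45550 after anti-TfR:Malat1 and 33010 after OTV:Malat1, the lowest of the 4 means. Malat1 in microglia fell by 0.71 on the log2 scale after OTV:Malat1 against saline (SE 0.13, adjusted p = 0.0462, edgeR). That fall was called in 17 of 30 fits, the reported one included, with a log2 change from -0.84 to -0.59. The same difference was -0.84 over all nuclei (adjusted p = 1.0, edgeR), -0.82 in perivascular macrophages (adjusted p = 0.219) and -0.43 in vascular nuclei (adjusted p = 0.925), not called by edgeR as fitted or by DESeq2 (adjusted p = 0.249, 0.126 and 1.0 in the same order). In perivascular macrophages 5 of 28 fits called it: edgeR with the deposited batch as a block (adjusted p = 0.000955), with either replicate block (0.0272 by title number, 0.0396 by sample number in fours), with no filter on low counts or without saline replicate 4. The authors' doublets (47758 nuclei, 16.8%) stayed in, and 20326 nuclei (7.16%) had a barcode sequence that occurred in more than 1 library, with 50 to 110 shared between any pair of libraries.

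The activating receptor genes Fcgr1 and Fcgr3 and the γ-chain gene Fcer1g were found in both macrophage labels. Fcgr1 RNA averaged 39.4 ± 9.07 CPM in microglia (SD, n = 17, range 26.7 to 62.2) and 55.1 ± 29.4 in perivascular macrophages. Fcer1g averaged 106 ± 26.3 CPM in microglia (63.1 to 150) and 124.8 ± 54.7 in perivascular macrophages. Neither Fcgr1 nor Fcer1g differed between the 2 labels beyond the spread over animals. The log2 difference, perivascular macrophages minus microglia, was 0.09 for Fcgr1 (higher in 12 of 17 animals, exact sign-flip p = 0.905) and -0.14 for Fcer1g (higher in 11 of 17, exact p = 0.921). An animal with no UMI weighs heavily on this scale, and the lowest level of each gene in perivascular macrophages was 0 CPM. Both genes were higher in microglia than in the label next below in 17 of 17 animals (exact p = 1.526e-05 each).

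By mean CPM, Fcgr3 and Fcgr2b were ordered in opposite ways across these labels. Fcgr3 averaged 92.8 ± 19.0 CPM in microglia (67.2 to 136) and 67.2 ± 47.5 in perivascular macrophages (0 to 161), with microglia higher in 12 of 17 animals (log2 difference -1.17 ± 2.06, SD, exact p = 0.00752). Fcgr2b, the inhibitory receptor, averaged 44.6 ± 11.8 CPM in microglia (26.7 to 70.7) and 189.5 ± 69.4 in perivascular macrophages (30.9 to 310.4), where it was higher in 16 of 17 animals (log2 difference 1.96 ± 0.80, exact p = 3.052e-05). The Fcgr3 difference was -0.74 with a pseudocount of 10 CPM (exact p = 0.00844), and 2 animals given Malat1 ASO had no Fcgr3 UMI under the perivascular macrophage label. Such animals weigh heavily on the log2 scale. Perivascular macrophages also held far fewer UMIs per animal than microglia (21209 to 79597 against 327643 to 848210). Pooled over animals, Fcgr3 stood at 93.67 CPM in microglia (95% Poisson interval 87.48 to 100.2) and 70.34 in perivascular macrophages (52.69 to 92.01). These intervals overlap, and the size of the Fcgr3 difference depends on the scale. Neighbouring labels were compared 30 times over the 6 genes, with p-values not adjusted. How the labels were made is not given in the sources used here. They may rest on the RNA of the same nuclei, so each such p is read only as how well the animals agree.

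**Figure D1:**
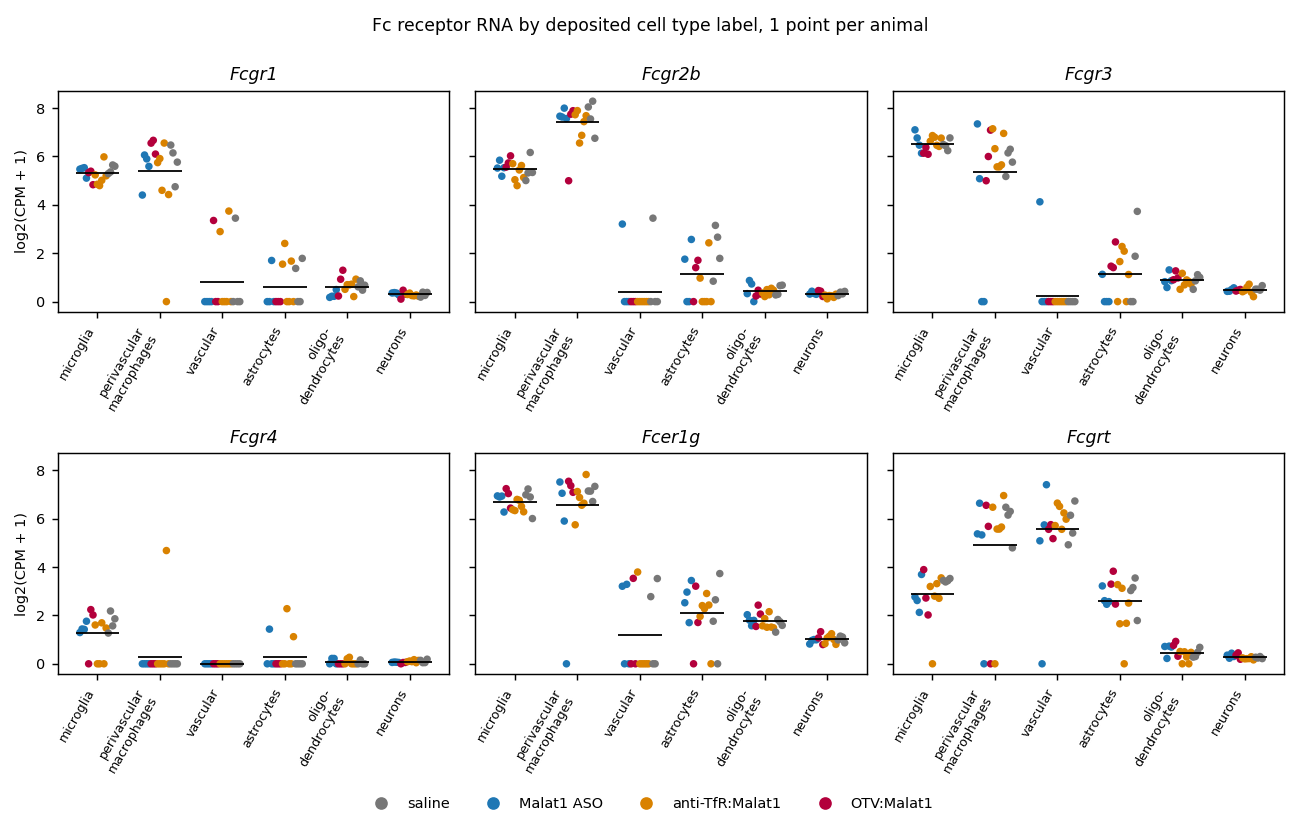
RNA level of each Fc receptor gene, as log2(CPM + 1), by deposited cell type label, with 1 point per animal coloured by group and a line at the mean over animals. Fcgr2b stands highest in perivascular macrophages (189.5 CPM on average), Fcgr3 in microglia (92.8 CPM) and Fcgrt in vascular cells (62.0 CPM).

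The balance between the inhibitory and the activating gene was taken within each animal, as a description, since the pair was chosen after the opposite order had been seen. Of the Fcgr2b and Fcgr3 UMIs together, Fcgr2b held 32.1% in microglia (95% exact binomial interval 29.5% to 34.7%, 402 of Fcgr2b and 852 of Fcgr3) and 73.5% in perivascular macrophages (66.8% to 79.5%, 147 and 53). The log2 ratio was higher in perivascular macrophages in 17 of 17 animals, by 2.57 ± 1.28 (SD). This difference ranged from 2.35 to 2.69 with any 1 animal left out, without doublets or within the cluster that holds most of each label. Microglia markers were present in the perivascular macrophage label at 1683 CPM, among them P2ry12 at 482 CPM against 1261 in microglia, while Mrc1 stood at 2725 and 10.3 CPM. The part of microglial RNA in these values was not tested.

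**Figure D2:**
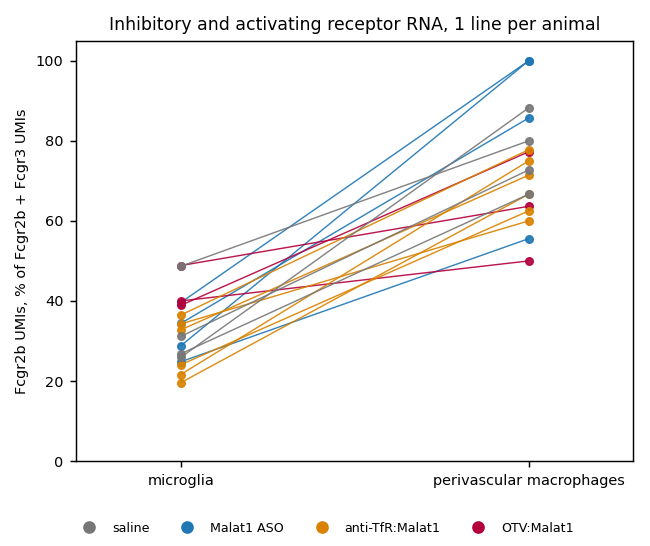
Share of Fcgr2b in the UMIs of Fcgr2b and Fcgr3 together (%), in microglia and in perivascular macrophages, with 1 line per animal coloured by group. The share rises from microglia to perivascular macrophages in each animal; 2 animals given Malat1 ASO reach 100 because no Fcgr3 UMI was counted there.

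Fcgr4 was sparse. Only 84 of its UMIs were counted in the whole matrix, 59 (70.2%) under the neuron label, 16 in microglia (1.74 ± 1.19 CPM, SD, n = 17) and 1 in perivascular macrophages. The neuron label held 68.0% of nuclei and 969718075 of the 1099241149 UMIs of all genes. None was found in 1226 vascular nuclei, which allows a share of up to 0.3004% of nuclei with a UMI (95% exact interval, counting error alone). That bound lies above the microglial share of 0.1895%. Microglia stood above perivascular macrophages on the log2(CPM + 1) scale (exact sign-flip p = 0.02), a call lost with a pseudocount of 10 CPM (log2 difference -0.12, exact p = 0.419). At 21209 to 79597 UMIs per animal in perivascular macrophages, most animals would hold no Fcgr4 UMI at the microglial level too. This test therefore cannot compare the levels, and nothing is read from it. Pooled UMIs gave 1.759 CPM in microglia (95% Poisson interval 1.005 to 2.857) and 1.327 in perivascular macrophages (0.0336 to 7.395).

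Fcgrt followed another order. It was highest in the vascular label (62.0 ± 38.0 CPM, SD, n = 17, range 0 to 168) and in perivascular macrophages (55.0 ± 36.5), labels that did not differ beyond their spread (log2 difference 0.65, exact p = 0.468). Perivascular macrophages stood above microglia (7.51 ± 3.61 CPM) by 2.02 on the log2 scale (higher in 14 animals and lower in 2, exact p = 0.00226). Microglia and astrocytes (6.05 ± 3.42 CPM) did not differ beyond their spread (exact p = 0.324). Astrocytes stood above oligodendrocytes (0.40 CPM) in 16 of 17 animals (log2 difference 2.14, exact p = 3.052e-05), and neurons came last at 0.21 CPM. Endothelial markers in the perivascular macrophage label summed to 11.9 CPM, against 3109 in the vascular label, with Flt1 and Cldn5 at 0.

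Within the vascular label, the Fcgrt level over all animals was highest in nuclei led by endothelial markers, which held 50 of its 95 UMIs. The 219 nuclei whose most abundant marker list was endothelial held 135.7 CPM of Fcgrt (95% Poisson interval 100.7 to 178.9, counting error only), the 415 mural-led nuclei 36.3 (20.8 to 59.0) and the 436 fibroblast-led nuclei 23.2 (12.7 to 38.9). Endothelial-led nuclei exceeded fibroblast-led nuclei in 14 animals and were lower in 0 (log2 difference 3.16, exact p = 0.000122, adjusted over 3 comparisons 0.000366). They exceeded mural-led nuclei in 13 animals and were lower in 3 (log2 difference 2.36, exact p = 0.0459, adjusted 0.0688), a difference that does not pass after adjustment. Another 156 nuclei were led by no single list and held 69.5 CPM.

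**Figure D3:**
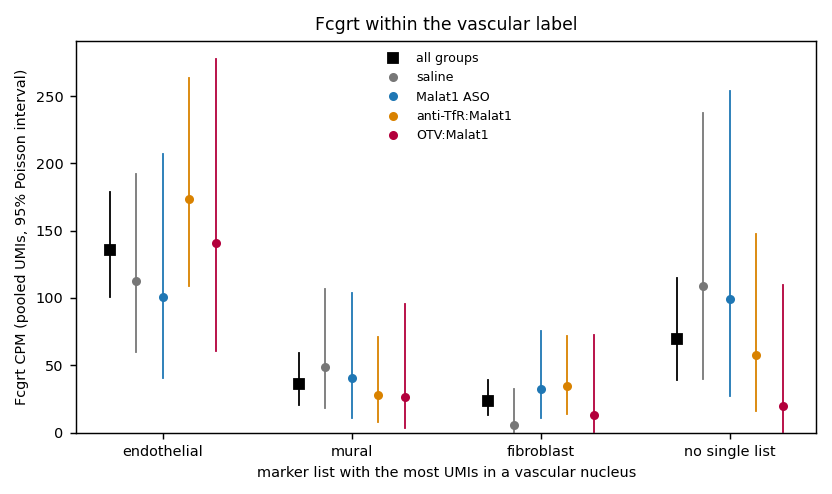
Fcgrt level (CPM of pooled UMIs) in nuclei of the vascular label, grouped by the marker list with the most UMIs, for all animals (black squares) and for each treatment group (coloured points), with 95% Poisson intervals. Endothelial-led nuclei held 135.7 CPM over all animals against 36.3 in mural-led and 23.2 in fibroblast-led nuclei, and the intervals of the 4 groups overlap within the endothelial-led nuclei.

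Most nuclei had no UMI of a given receptor gene. In microglia (median 1004 UMIs per nucleus) 9.59% of nuclei had a UMI of Fcgr3 (95% exact interval 8.97% to 10.2%), 10.8% of Fcer1g, 4.58% of Fcgr2b, 4.2% of Fcgr1, 0.805% of Fcgrt and 0.189% of Fcgr4. In perivascular macrophages (median 960 UMIs) 19.0% had a UMI of Fcgr2b (16.1% to 22.2%), 13.1% of Fcer1g, 7.31% of Fcgr3, 6.39% of Fcgr1, 6.09% of Fcgrt and 0.152% of Fcgr4. The neuron label, of much greater depth (median 4614 UMIs), is given beside them as the reference for a cell type not known for the Fcγ receptors: 0.504% of nuclei for Fcer1g, 0.199% for Fcgr3, 0.115% for Fcgr1, 0.112% for Fcgr2b, 0.103% for Fcgrt and 0.0305% for Fcgr4. Its nuclei outside clusters 11 and 18, the deposited clusters that hold the microglia, gave 0.404%, 0.115%, 0.0615%, 0.0489%, 0.0935% and 0.03% in the same order (median 4627 UMIs), and the part of free RNA in these shares was not tested. At least 1 of the 6 genes was seen in 26.3% of microglia and 42.8% of perivascular macrophages, and 2 or more in 3.59% and 8.22%.

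The neuron label had 68.0% of nuclei and 969718075 of the 1099241149 UMIs of all genes. It held 31.9% of the Fcgr1 UMIs of the matrix and 41.7% of those of Fcer1g, or 1000 Fcer1g UMIs against 992 in microglia. Of the 8444 microglia, 8092 lay in cluster 11 and 352 in cluster 18, and the authors called 82.7% of all nuclei in cluster 18 doublets. These clusters held 1.52% of the neuron-labelled nuclei and, of the UMIs under that label, 58.1% for Fcgr2b, 48.2% for Fcgr1, 43.7% for Fcgr3, 21.3% for Fcer1g, 11.2% for Fcgrt and 3.39% for Fcgr4. In neuron-labelled nuclei outside those clusters Fcgr1 stood at 0.122 CPM, Fcgr2b at 0.1, Fcgr3 at 0.229, Fcer1g at 0.821, Fcgrt at 0.19 and Fcgr4 at 0.0594.

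Likeness was measured as Pearson's r of log2(CPM + 1) over 30 groups of nuclei made by label and cluster, among 12853 genes, as a description with no p, since the groups share libraries. Fcgr1 was most like Cd300c2 (r = 0.990), Fcgr3 (0.987) and 5430427O19Rik (0.986). Fcgr2b was most like Abcg3 (0.996), Ms4a6b (0.993) and Adgre1 (0.993), the last encoding the macrophage protein F4/80. Fcgr3 was most like Nlrp3 (0.991), an inflammasome sensor, Pld4 (0.991) and Cd300c2 (0.990). Fcer1g was most like C1qc (0.990) and C1qb (0.987), chains of complement C1q, and Ntpcr (0.985). Fcgrt was most like Clec2d (0.926), Sult1a1 (0.923) and Acsf2 (0.907).

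The treatment question was whether the 2 antibody-type conjugates, which bring an Fc, went with other receptor levels than saline or the free oligonucleotide. No change of a receptor gene passed the test in any comparison. Of 70 fitted changes (5 genes over all nuclei, 4 in microglia and 1 in perivascular macrophages, over 7 comparisons) edgeR called 0, with adjusted p from 0.946 to 1.0, DESeq2 also called 0, and 6 had an unadjusted p under 0.05, of which 3 were in microglia and 3 over all nuclei. For both conjugates against saline and Malat1 ASO, 0.011% of the 9104 genes tested in microglia, 0.212% of 1418 in perivascular macrophages and 0% of 21375 over all nuclei were called by edgeR, and DESeq2 called 0.011%, 0.141% and 0%. For OTV:Malat1 against saline and for OTV:Malat1 against Malat1 ASO, edgeR and DESeq2 each called 0.011% in microglia. For OTV:Malat1 against Malat1 ASO, edgeR called 0.0705% and DESeq2 0.212% of the genes in perivascular macrophages, and for OTV:Malat1 against saline DESeq2 called 0.00468% over all nuclei. The 7 comparisons share animals and are not independent.

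The share of all genes with an unadjusted p under 0.05 gives the background for those 6. In microglia it was 4.21% for both conjugates against both controls, 4.06% for OTV:Malat1 against saline, 2.92% for anti-TfR:Malat1 against saline, 4.77% for OTV:Malat1 against Malat1 ASO, 2.38% for anti-TfR:Malat1 against Malat1 ASO, 2.26% for Malat1 ASO against saline and 3.64% for OTV:Malat1 against anti-TfR:Malat1. In perivascular macrophages, where 0 of the 7 changes of Fcgr2b reached it, the shares in the same order were 4.23%, 3.46%, 3.24%, 5.92%, 6.35%, 5.15% and 4.09%. Over all nuclei they were 1.53%, 1.11%, 1.21%, 1.15%, 1.15%, 0.604% and 1.61%. In sums over nuclei of a label, less RNA per nucleus and fewer expressing nuclei cannot be told apart.

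Over all nuclei Fcgr3 stood at 1.34, 1.53, 1.12 and 1.47 CPM after saline, 2.15, 1.34, 1.22 and 1.01 after Malat1 ASO, 0.924, 1.29 and 0.957 after OTV:Malat1, and 1.09 to 1.34 after anti-TfR:Malat1. The groups overlapped. Both conjugates against both controls gave a log2 change of -0.31 (SE 0.13, 95% interval -0.59 to -0.04, unadjusted p = 0.0283, adjusted p = 1.0, edgeR), OTV:Malat1 against saline -0.44 (SE 0.20, unadjusted p = 0.0434) and against Malat1 ASO -0.51 (SE 0.20, unadjusted p = 0.0223), both with an adjusted p of 1.0 by edgeR. Microglia, where most Fcgr3 UMIs lay, made up 2.71% of nuclei after the conjugates and 3.29% after the controls (exact permutation p = 0.0627), and the part of this share in the Fcgr3 values was not tested. Fcgrt over all nuclei gave -0.15 for both conjugates (SE 0.22, -0.61 to 0.32, adjusted p = 1.0, edgeR).

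Among the activating chains in microglia, Fcgr1 levels were 38.1, 40.1, 49.1 and 47.3 CPM after saline, 43.5, 44.5, 45.4 and 33.4 after Malat1 ASO, 39.2, 40.9 and 27.5 after OTV:Malat1, and 26.7 to 62.2 (median 33.5) after anti-TfR:Malat1. The groups overlapped. Both conjugates against saline and Malat1 ASO gave a log2 change of -0.21 (SE 0.18, 95% interval -0.57 to 0.16, adjusted p = 0.989, edgeR). Over the settings and left-out animals it ranged from -0.43 to -0.15. With a block by title number it was -0.37 (unadjusted p = 0.0461, adjusted p = 0.763, edgeR), and with a block by sample number in fours -0.43 (unadjusted p = 0.0447, adjusted p = 1.0, edgeR). Anti-TfR:Malat1 replicate 5 stood at 62.2 CPM, above the next in its group at 36.7.

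Fcgr3 levels in microglia were 89.0, 86.1, 74.6 and 107.8 CPM after saline, 136.1, 107.7, 87.4 and 69.1 after Malat1 ASO, and 69.2, 81.9 and 67.2 after OTV:Malat1. After anti-TfR:Malat1 they were 84.3 to 115.3 (median 102.5). The OTV:Malat1 animals were all below the anti-TfR:Malat1 animals and overlapped both control groups. Of the 9104 genes tested in microglia, 0.67% had all OTV:Malat1 animals below all anti-TfR:Malat1 animals, and 1.74% had these groups apart in either direction. Both conjugates together differed from both controls by -0.18 on the log2 scale (SE 0.13, -0.45 to 0.10, adjusted p = 0.989, edgeR). Against anti-TfR:Malat1, OTV:Malat1 gave -0.48 (SE 0.20, -0.88 to -0.07, unadjusted p = 0.0234, adjusted p = 0.979, edgeR), and against Malat1 ASO it gave -0.52 (SE 0.21, -0.94 to -0.09, unadjusted p = 0.0201, adjusted p = 0.954, edgeR). Within the deposited batches 2, 3 and 4 the log2 difference of OTV:Malat1 from anti-TfR:Malat1 was -0.74, -0.27 and -0.51, and that from Malat1 ASO was -0.64, -0.09 and -0.04; batch 1 held no OTV:Malat1 animal.

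Fcer1g levels in microglia were 125.7, 148.5, 117.8 and 63.1 CPM after saline, 121.7, 118.0, 121.0 and 76.3 after Malat1 ASO, 150.0, 130.2 and 85.5 after OTV:Malat1, and 76.8 to 109.9 (median 85.7) after anti-TfR:Malat1. The low animal of each of the first 3 groups was in batch 4. Anti-TfR:Malat1 differed from saline by -0.40 (SE 0.19, -0.78 to -0.01, unadjusted p = 0.0435, adjusted p = 1.0, edgeR). Within batches 1 to 4 that difference was -0.62, -0.90, -0.12 and 0.40. OTV:Malat1 differed from saline by 0.03 (-0.42 to 0.48).

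**Figure D4:**
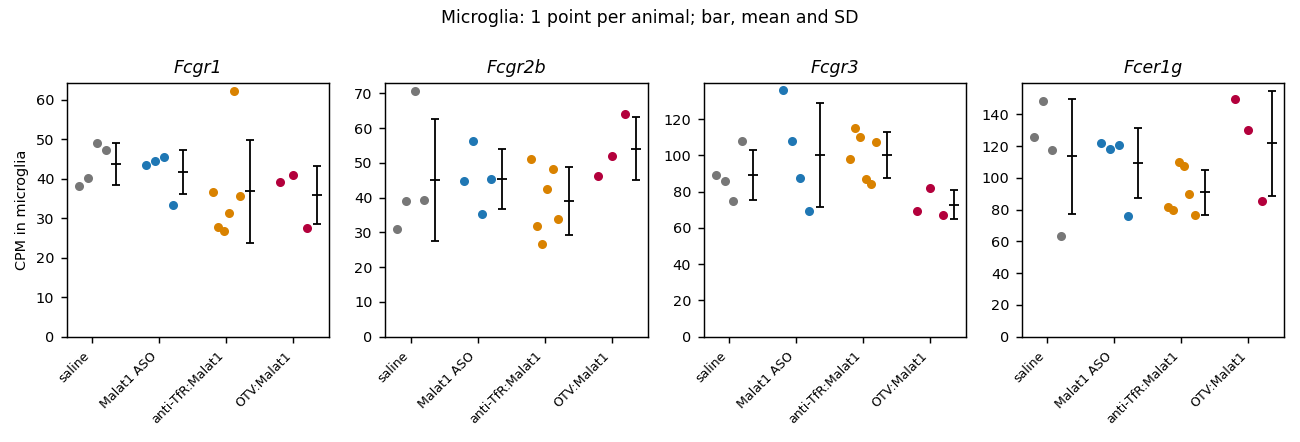
CPM of Fcgr1, Fcgr2b, Fcgr3 and Fcer1g in microglia by treatment group, with 1 point per animal and the mean and SD beside them. The highest OTV:Malat1 animal for Fcgr3 (81.9 CPM) lies below the lowest anti-TfR:Malat1 animal (84.3 CPM), as in 0.67% of genes tested, and the other genes overlap between all groups.

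The inhibitory receptor Fcgr2b showed no called change with the conjugates in microglia. It stood at 31.1, 38.9, 70.7 and 39.4 CPM after saline, 44.9, 56.4, 35.3 and 45.3 after Malat1 ASO, 46.1, 52.1 and 64.1 after OTV:Malat1, and 26.7 to 51.0 (median 38.2) after anti-TfR:Malat1. The groups overlapped, and both conjugates against both controls gave 0.02 (SE 0.18, -0.35 to 0.39, adjusted p = 1.0, edgeR). In perivascular macrophages Fcgr2b stood at 262.9, 186.1, 310.4 and 106.7 CPM after saline, 201.7, 196.9, 254.2 and 188.6 after Malat1 ASO, 30.9, 213.6 and 236.1 after OTV:Malat1, and 93.0 to 236.7 (median 188.6) after anti-TfR:Malat1. The conjugates differed from the controls there by -0.36 (SE 0.29, -0.95 to 0.23, adjusted p = 0.982, edgeR), less than the spread between animals. This value was -0.05 in nuclei of 1000 or more UMIs, -0.55 in the cluster that holds most of the label and -0.57 without OTV:Malat1 replicate 2.

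**Figure D5:**
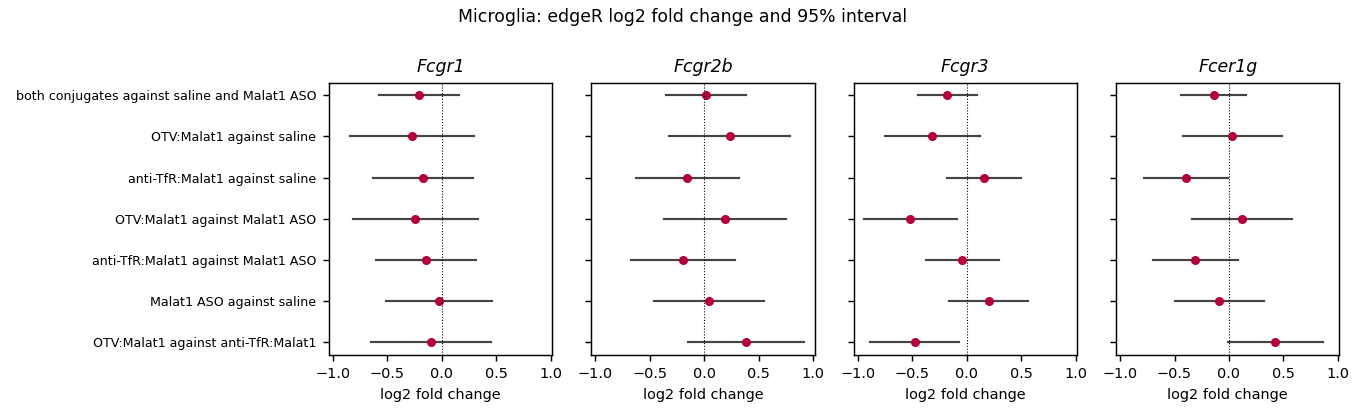
Fitted log2 fold change (edgeR, point) with its 95% interval (line) for Fcgr1, Fcgr2b, Fcgr3 and Fcer1g in microglia in each of the 7 comparisons, with a dotted line at 0. The 28 values lie between -0.52 and 0.43, and 3 intervals leave out 0, all with an adjusted p of 0.954 or more.

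The bounds of all 28 microglia intervals ran from -0.94 to 0.92 on the log2 scale. Shares of nuclei with a UMI were also compared, after each nucleus was thinned to 500 UMIs. In microglia 1 of 42 comparisons and in perivascular macrophages 2 of 42 had an unadjusted exact permutation p under 0.05, where 3.3% and 3.79% of all comparisons did over the genes edgeR tested in each label. With any 1 animal left out the counts were 1 to 3 and 0 to 5, and nothing is read from them. They were Fcgr3 in microglia (3.66% after OTV:Malat1 and 5.04% after anti-TfR:Malat1, 6.97% and 10.6% unthinned), and Fcgr1 (OTV:Malat1 and saline) and Fcer1g (OTV:Malat1 and anti-TfR:Malat1) in perivascular macrophages, the latter 2 genes not being among those edgeR tested there.

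The share of Fcgr2b in the UMIs of Fcgr2b and Fcgr3 was also compared, in 14 tests. In microglia it was 33.1% ± 10.6 after saline (SD, n = 4), 31.9% ± 6.47 after Malat1 ASO (n = 4), 28.1% ± 7.22 after anti-TfR:Malat1 (n = 6) and 42.6% ± 5.45 after OTV:Malat1 (n = 3). Between OTV:Malat1 animals (38.9% to 48.8%) and anti-TfR:Malat1 animals (19.6% to 36.5%) the log2 ratio differed by 0.94 (exact permutation p = 0.0238, adjusted 0.217). Within batches the smallest p these groups allow is 0.0556, so that test could not pass. The call on the unadjusted p was lost when anti-TfR:Malat1 replicate 2, 3 or 6 or any OTV:Malat1 animal was left out (up to 0.107). In perivascular macrophages the log2 ratio was lower by 1.15 after the conjugates than after the controls (exact permutation p = 0.0310, adjusted 0.217, within batches 0.0483). Mean shares there were 76.9% ± 9.31 after saline (SD), 85.3% ± 20.95 after Malat1 ASO, 68.9% ± 7.04 after anti-TfR:Malat1 and 63.6% ± 13.64 after OTV:Malat1. They rested on only 10, 9, 24 and 10 Fcgr3 UMIs in the same order. The difference of the log2 ratio was -0.77 without Malat1 ASO replicate 3 (exact permutation p = 0.0689), 1 of the 2 animals with 0 Fcgr3 UMIs, and leaving out any of 5 further animals also ended the unadjusted call. Perivascular macrophages took 0.251% of nuclei after the conjugates and 0.210% after the controls (exact permutation p = 0.1), with 0.258% after anti-TfR:Malat1 and 0.188% after Malat1 ASO (exact permutation p = 0.019, 1 of 7 comparisons, not adjusted), and the part of this in the ratio was not tested.

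Fcgrt did not pass the filter on low counts in any of the 3 labels tested and was fitted over all nuclei only. In the vascular label it stood at 29.2, 69.4, 41.4 and 104.9 CPM after saline, 32.9, 0, 52.5 and 168 after Malat1 ASO, 46.1, 52.8 and 35.1 after OTV:Malat1, and 46.1 to 98.8 (median 68.2) after anti-TfR:Malat1. The groups overlapped, and the exact permutation p-values of its 7 comparisons ran from 0.0714 to 0.829. Without the filter, both conjugates against both controls gave -0.06 (-0.78 to 0.66, edgeR). These vascular values rest on 95 Fcgrt UMIs over all animals. Endothelial markers under that label ran from 1085 to 7407 CPM between animals. Their group medians were 4459 after saline, 2113 after Malat1 ASO, 2378 after OTV:Malat1 and 3319 after anti-TfR:Malat1. The part of this in the Fcgrt values was not tested. In astrocytes the 7 exact permutation p-values of Fcgrt ran from 0.202 to 0.743.

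Partners and downstream genes of the receptors were taken from lists. Of 46 genes in 5 lists (the FcRn partner, signalling from the activating and inhibitory motifs, other antibody-binding receptors, complement C1q and the phagocytic cup), 44 were in the matrix and 36 were tested in microglia. edgeR called 0 of the 36 in each of the 7 comparisons, 1 or 2 had an unadjusted p under 0.05, where 2.26% to 4.77% of all 9104 genes did, and their median log2 change lay between -0.09 and 0.01. For both conjugates against both controls the median was -0.04 over the list and 0.00 over all genes. In that comparison B2m, the partner chain of FcRn, gave -0.22 (SE 0.16); in the vascular label it gave 0.71 (SE 0.47, -0.25 to 1.68, adjusted p = 0.981, edgeR), and 1.47 for OTV:Malat1 against Malat1 ASO there (SE 0.72, -0.02 to 2.96, adjusted p = 0.854, edgeR). In microglia Syk, the kinase recruited by the γ-chain, gave 0.01 (SE 0.10), and Inpp5d, which encodes SHIP-1, gave -0.04 (SE 0.05). Tyrobp, an adaptor related to the γ-chain, gave -0.15 (SE 0.15), and Fcrls, a microglial relative of the Fc receptors, gave -0.12 (SE 0.09). In microglia all 5 had an adjusted p of 0.989 or more by edgeR. Over all nuclei Inpp5d gave -0.28 (-0.48 to -0.08, unadjusted p = 0.00798, adjusted p = 1.0, edgeR) and Fcrls -0.35 (-0.68 to -0.02, unadjusted p = 0.0401, adjusted p = 1.0, edgeR), and the part of the microglial share of nuclei in these values was not tested. Trim21, which binds antibody inside cells, was tested over all nuclei only and gave -0.06 (SE 0.22). In perivascular macrophages 0 of 25 listed genes and in the vascular label 0 of 7 were called by edgeR in any comparison, and 0 to 2 and 0 to 1 had an unadjusted p under 0.05 (3.24% to 6.35% and 2.42% to 5.34% of all genes). Of all genes, edgeR called at most 0.212% of 1418 in perivascular macrophages and 0% of 3312 in the vascular label, so these counts of 0 say nothing particular about the lists.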

How the data were processed

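The deposited table holds UMI counts per gene and nucleus, as the authors' file gives them. The submitters' processing notes name Cell Ranger 6.0.1, Seurat 4 and mm10. The authors deposited cell type labels, clusters, doublet calls and batch numbers; their making is not given in the sources used here, and 12 metadata columns were not used.

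Counts were summed per animal over all nuclei, microglia, perivascular macrophages and vascular cells (20 or more nuclei per animal). Genes passed filterByExpr, libraries were scaled by TMM, and all 17 animals were fitted together with edgeR 4.0.16 (quasi-likelihood, R 4.3.3), with Benjamini-Hochberg adjustment over all genes tested and a threshold of 0.05. DESeq2 1.42.0, no filter, blocks by replicate number or batch, no doublets, other size factors and leaving out each animal were alternatives. The fit was also run on simulated microglia sums with changes larger than those of the receptor genes. That run does not check the fit for changes as small as these. Levels were CPM, and within-animal differences of log2(CPM + 1) were tested by exact sign-flip (Python 3.11.15, scipy 1.17.1). Ratios used 0.5 UMIs as pseudocount. Shares of nuclei were taken after thinning to 500 UMIs and compared by exact two-sided permutation of animals. Poisson and binomial intervals cover counting error only, while edgeR intervals of log2 changes include the spread between samples. Since the labels number samples without naming animals, each sample was taken as 1 animal and p-values measure the spread between these samples. The 6 genes were always named, with B2m, Syk, Inpp5d, Tyrobp, Trim21, Fcrls and the 3 genes most like each member (200 or more UMIs). The members, lists and tests were chosen with earlier results of these data known.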

Additional observations from a re-analysis of the deposited data

Results flagged for a closer look

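Among 33 groups of 4 or 6 animals checked for an animal far from the others, 4 held such an animal. Chance gives about 1 in 20 for independent groups. These groups share the same libraries, so the count cannot be set against that rate. Fcgr1 in microglia stood at 33.38 CPM in Malat1 ASO replicate 4, below the next lowest at 43.45. Fcgr1 in microglia stood at 62.17 CPM in anti-TfR:Malat1 replicate 5, above the next highest at 36.71. Fcer1g in microglia stood at 76.29 CPM in Malat1 ASO replicate 4, below the next lowest at 118.0. That animal was in batch 4, like the low Fcer1g animals after saline (63.09 CPM) and OTV:Malat1 (85.46 CPM). Fcgrt in astrocytes stood at 8.304 CPM in Malat1 ASO replicate 1, above the next highest at 5.098.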

How the results depend on the processing

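The 70 fitted changes were refitted 1965 times, with 0 calls and a lowest adjusted p of 0.702 (edgeR or DESeq2). The refits included the deposited batch as a block, while the reported fits had group as their only term. The sign changed in 90 refits, 63 of them with an animal left out, and 1 of the 90 started from a value of 1 SE or more: Fcgr3 over all nuclei, anti-TfR:Malat1 against Malat1 ASO, gave 0.045 without Malat1 ASO replicate 1 (-0.19 as reported, -0.31 to 0.045 with any animal left out); the cause was not tested. The replicate numbers did not pair the animals (correlations -0.344 to 0.44 over all nuclei and -0.149 to 0.218 in microglia), and a replicate block by number called 0 of 77 values, lowest adjusted p 0.763, with 6 unadjusted p under 0.05; a replicate block by sample number in fours also called 0 of 77 (lowest adjusted p 0.768, 15 unadjusted p under 0.05). Deviations of animals from the same deposited batch had a median correlation over 27 pairs of 0.223 over all nuclei (lowest -0.0674) and 0.118 in microglia (lowest -0.0818). The count of share comparisons in microglia with an unadjusted p under 0.05, 1 as reported, was 3 at 1000 UMIs, 0 unthinned, 2 without doublets, 0 within batches and 1 to 3 with an animal left out. That in perivascular macrophages, 2 as reported, was 0 at 1000 UMIs, 1 unthinned, 1 within batches and 0 to 5 with an animal left out, and asking for 50 or more nuclei gave no value. The within-batch counts are no check of the 3 reported comparisons: the smallest p that batches allow is 0.125 for OTV:Malat1 against saline and 0.0556 against anti-TfR:Malat1. The restriction to clusters led by a label could not be run for perivascular macrophages. Without doublets or with an animal left out, Fcgrt in endothelial-led nuclei exceeded fibroblast-led ones by 2.84 to 3.41. Alternatives for the ratios, the lists within the vascular label and the home cluster were chosen after seeing the data.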
